A study of Mus musculus with 15 samples.

Results

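The 9 genes described here encode core subunits of the Polycomb repressive complexes, taken as Ezh1, Ezh2, Suz12 and Eed of PRC2 and Ring1, Rnf2, Bmi1, Cbx2 and Cbx8 of PRC1. They were chosen by name among the 19452 genes that had a probe set with a single gene symbol, and each was read from 1 probe set, the one with the highest mean at 0 min. All 9 were measured and all 9 lay above the median of their array on each of the 3 arrays at 0 min. Eed had a second probe set, which averaged 1.41 at 0 min, did not pass that level filter and entered only an alternative that averages both.

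PRC2 methylates histone H3 on the lysine that marks silenced genes, with EZH2 or its paralogue EZH1 as the catalytic subunit and SUZ12 and EED as the subunits it needs for activity. PRC1 attaches ubiquitin to histone H2A through RING1 or RNF2 (RING1B) paired with a PCGF protein such as BMI1, and its CBX chromodomain proteins bind the mark that PRC2 leaves. In myoblasts EZH2 is known for holding genes of differentiated muscle silent, and its level falls as the cells differentiate.

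The study used C2C12, a line of mouse myoblasts that can be made to fuse into myotubes, as proliferating cells kept below confluency. Actinomycin D, which blocks transcription, was added at 8 µg/mL for 30 min, and total RNA was then collected at 0 min and 10, 50, 110 and 230 min later, so that the loss of existing mRNAs could be followed. Each time was measured on 3 Affymetrix Mouse Gene 1.0 ST arrays, numbered as replicates 1, 2 and 3, which makes 15 arrays in all. Every sample came from the same line, LKO1, which carries an empty lentiviral vector and was kept in puromycin, and every sample received the drug. The 0 min cells had therefore already spent 30 min in actinomycin D, and no arrays of untreated cells were analysed here. The methods state that the time course was run in triplicate, without saying whether from separate cultures, so the p-values measure only the spread between these arrays, and the number of arrays limits their precision.

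All 8 myoblast markers, among them Myod1, Myf5, Cdh15 and Des, passed the level filter, with summed ratios of 373.5 to 467.8 at 0 min. Most of that sum was Vim, at a mean of 265.8, while the others averaged from 5.46 for Myf5 to 42.3 for Des. Of the myotube markers 4 of 12 passed, with sums of 31.6 to 52.6 over the whole list. Of 11 fibroblast and adipocyte markers 4 passed, with sums of 33.9 to 42.2 over the list. These were Cd34 at a mean of 10.8, Lpl at 7.94, Pdgfra at 4.72 and Col15a1 at 3.22. Of those that did not pass, Lum, Dpt, Adipoq and Fabp4 lay between 0.95 and 1.37 at 0 min. Dcn, Plin1 and Thy1 averaged 1.73, 2.13 and 2.42. The part of these cell type markers in the results below was not tested. Values were ratios to the 5th percentile of the array, so that 1 is close to the level of the dimmest probe sets. At 0 min the arrays had medians of 2.42 to 2.74. The 110 min array of replicate 1 stood apart at a median of 1.59, below the 1.72 of its own 230 min array, and the 230 min array of replicate 2 had the lowest median at 1.44. In RNA from whole cultures fewer cells and less RNA per cell cannot be told apart.

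The first question was whether the Polycomb transcripts were lost after transcription stopped. All 9 fell over the time course on the scale as deposited, by a linear trend of the log2 ratio in limma with adjusted p of at most 0.00035. This was also true of most transcripts, since 96.4% of 12544 expressed probe sets fell, and the median of all their slopes was -0.25 log2 per hr. The members ranged from -0.60 for Cbx2 to -0.20 for Bmi1, with a median of -0.37. Cbx2, Ezh2 and Eed were among the steeper transcripts of the cell, with 2.02%, 4.14% and 5.08% of probe sets at least as steep. The place of Eed rests on its brighter probe set: with log2 ratios averaged over both of its probe sets its slope was -0.29, where the median of all genes was -0.26. Ezh1, Ring1, Suz12, Rnf2 and Cbx8 had slopes between -0.40 and -0.34. Bmi1 was shallower than the median, with 69.3% of probe sets at least as steep.

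The direction of these trends depends on what each array is set against. Dividing each array by its median moved the median slope of all probe sets to -0.07, with 4741 lower (37.8%) and 246 higher against 12097 lower and 3 higher as deposited. In that scaling 8 of 9 members still fell, and Bmi1 had a slope of -0.02 (limma, adjusted p = 0.73). Dividing by the 75th percentile moved the median slope of all to 0.07, with 1964 lower (15.7%) and 6272 higher (50%). Ezh2, Ezh1, Eed, Ring1 and Cbx2 still fell there, Bmi1 rose by 0.11 log2 per hr (limma, adjusted p = 0.0044), and Suz12, Rnf2 and Cbx8 passed in neither direction. The ratio of one member to another on the same array does not depend on this scaling.

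**Figure D1:**
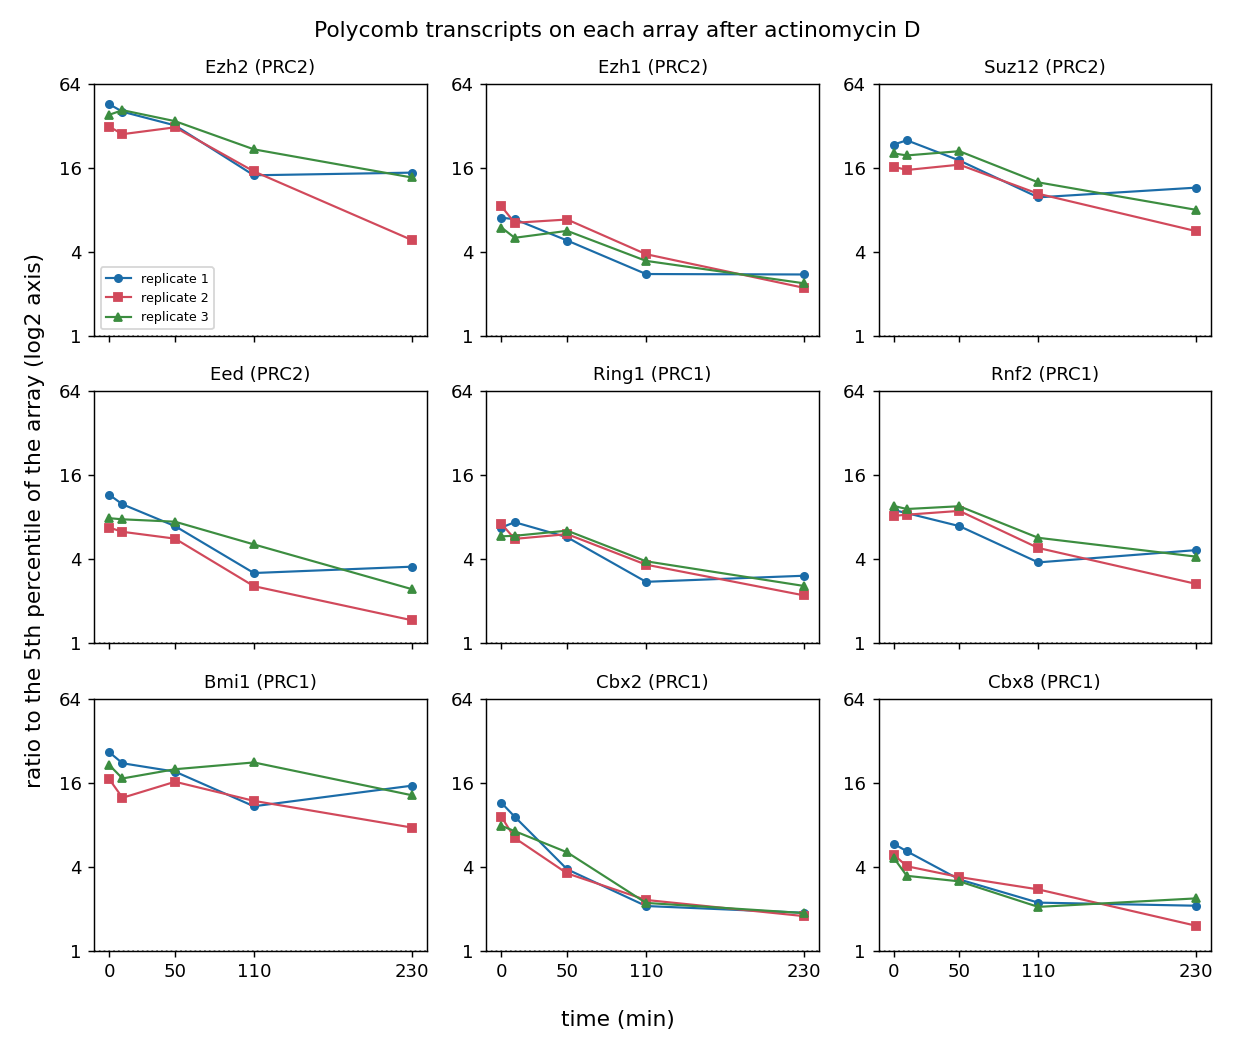
Ratio of each Polycomb transcript to the 5th percentile of its array (y axis, log2 scale) against time in min (x axis), with 1 line for each replicate time course. Cbx2 reached 3.58 to 5.07 by 50 min, and Bmi1 kept the largest share of its level at 230 min. Suz12, Ring1 and Rnf2 had mean shares of 93.1% to 94.9% at 50 min, with 76.9%, 85.2% and 76.7% in replicate 1. The values are on the deposited scale; with the 75th percentile of each array as the divisor, the Bmi1 trend was 0.11 log2 per hr.

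Cbx2, a chromodomain subunit that directs PRC1 to methylated histones, was lost first. In replicates 1, 2 and 3 its ratio was 11.5, 9.11 and 7.85 at 0 min and 9.14, 6.43 and 7.20 at 10 min. It was 3.83, 3.58 and 5.07 at 50 min, 2.09, 2.31 and 2.20 at 110 min, and 1.87, 1.77 and 1.86 at 230 min. All 3 arrays at 50 min lay below all 6 earlier ones, and the values at 230 min lay below all others and close to the dimmest probe sets. On average 45.8% ± 16.6 of the 0 min level was left at 50 min and 19.8% ± 3.71 at 230 min (SD, n = 3).

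Cbx2 was the only member to differ from 0 min by 50 min, at -1.19 ± 0.21 on the log2 scale (SE; limma, adjusted p = 5.6e-05), where 1.99% of all expressed probe sets were called lower. The call held under every alternative tried, with adjusted p between 6.1e-07 and 0.017. At 10 min no member passed, and none of the 12544 probe sets did in limma (0%; at an unadjusted p under 0.05, 124 were lower and 7 higher). The Cbx2 difference at 10 min was -0.32 ± 0.21 (SE).

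Cbx8, a paralogue of Cbx2 in the same role, followed a shallower course. Its ratios in replicates 1, 2 and 3 were 5.84, 4.89 and 4.64 at 0 min and 5.16, 4.03 and 3.44 at 10 min. They were 3.24, 3.37 and 3.14 at 50 min, 2.21, 2.75 and 2.06 at 110 min, and 2.10, 1.51 and 2.37 at 230 min. The 50 min values lay below all values at 0 and 10 min, while those at 110 and 230 min overlapped. At 50 min the difference from 0 min was -0.65 ± 0.21 (SE), which did not pass over all probe sets (limma, adjusted p = 0.098, unadjusted p = 0.0029). It passed with an intensity trend in the variance (adjusted p = 0.015) and without the 2 arrays that stand apart (adjusted p = 0.0029), and in no other alternative (adjusted p 0.062 to 0.60). In those 2 settings 459 and 1069 of 12544 probe sets were lower at 50 min, against 249 in the main fit. In the mouse gene table of assembly GRCm38.p6, Cbx2 and Cbx8 are next to each other among protein-coding genes.

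The other members kept most of their 0 min level at 50 min on average, with lower shares in replicate 1 for most of them. In replicate 1 the shares were 59.6% for Eed, 68.6% for Ezh1, 70.6% for Ezh2 and 72.6% for Bmi1. Those of Rnf2, Suz12 and Ring1 were 76.7%, 76.9% and 85.2% there. In replicates 2 and 3 they ran from 80.6% for Ezh1 to 109.8% for Ring1. Mean shares of the 0 min level were 94.9% ± 16.5 for Rnf2, 94.7% ± 15.4 for Suz12, 93.1% ± 14.5 for Ring1, 87.3% ± 12.8 for Bmi1, 86.5% ± 14.5 for Ezh2, 81.3% ± 13.0 for Ezh1 and 79.1% ± 17.8 for Eed (SD, n = 3). None of these 7 passed at 50 min in limma, with log2 differences of -0.36 to -0.09 and adjusted p of 0.67 or more. For Suz12, Ring1 and Rnf2 the difference was above 0 when arrays were divided by their median or 75th percentile, between 0.05 and 0.10.

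**Figure D2:**
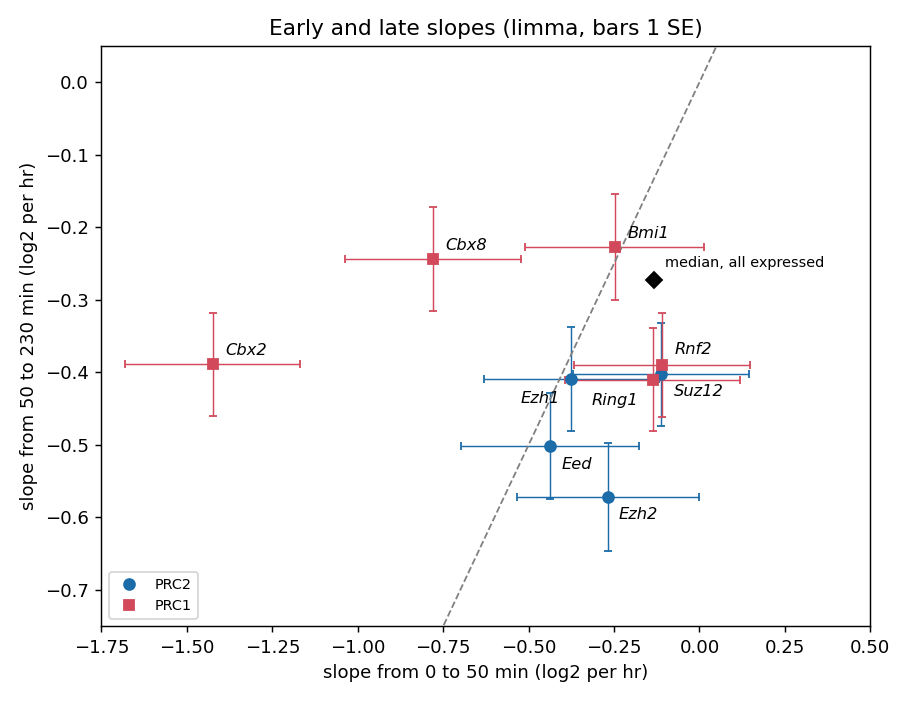
Slope of the log2 ratio from 0 to 50 min (x axis) against the slope from 50 to 230 min (y axis), both in log2 per hr, for the 4 PRC2 members (circles), the 5 PRC1 members (squares) and the median of all expressed probe sets (diamond). Bars are 1 SE and the dashed line marks equal slopes. Cbx2 lies far to the left at -1.42 early and -0.39 late, while Suz12, Ring1 and Rnf2 lie close together at -0.14 to -0.11 early and -0.41 to -0.39 late.

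Early and late slopes were compared to see whether each transcript fell at 1 rate, as a first-order decay assumes. No member passed this test in limma. At adjusted p under 0.05, 18 probe sets (0.143%) were called with the early slope lower than the late slope. Only 4 were called with it higher. At an unadjusted p under 0.05 these counts were 212 and 275 over all probe sets, and Cbx2 alone among the members was below it. For Cbx2 the early slope minus the late slope was -1.04 ± 0.30 log2 per hr (SE; adjusted p = 0.19, unadjusted p = 0.00069), and 0.271% of probe sets had a value as low. It passed with 75th percentile scaling (adjusted p = 0.0062; 1.45% of probe sets did), with an intensity trend in the variance (0.042) and without the 2 arrays that stand apart (0.0070), but not in the other alternatives (0.093 to 1). Cbx8 had -0.54 ± 0.30, with 2.16% of probe sets as low. Bmi1, Ezh1 and Eed lay between -0.02 and 0.06. Ring1, Rnf2, Suz12 and Ezh2 lay between 0.27 and 0.30, where the median of all probe sets was 0.16.

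Pairs of members were also compared over the first 50 min alone, a choice made after the values had been seen. The log2 ratio of 2 members on the same array was followed over the 9 arrays at 0, 10 and 50 min, with an exact two-sided permutation test of times within each time course, whose smallest possible p is 0.0046. Cbx2 fell faster than each of the other 8 members in 3 of 3 time courses, by 0.68 log2 per hr against Cbx8 and by 0.97 to 1.29 against the other 7. After adjustment over 36 pairs the exact p was 0.028 to 0.042 for 6 of them and 0.060 against Bmi1 and Cbx8. Cbx8 fell faster than Ezh1, Suz12, Ring1 and Rnf2, by 0.40 to 0.61 log2 per hr (exact permutation test, adjusted p 0.028 to 0.042).

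By 110 min all 9 members were below their 0 min level (limma, adjusted p of at most 0.013), as were 84.8% of all expressed probe sets, and by 230 min all 9 were, as were 94.3%. At 110 min Cbx2 had fallen by 2.09 and the others by 0.58 (Bmi1) to 1.29 (Eed) on the log2 scale. With arrays divided by their median 5 members were lower at 110 min (17% of probe sets were), namely Ezh2, Ezh1, Eed, Cbx2 and Cbx8, and with the 75th percentile 2 were, Eed and Cbx2 (9.71% of probe sets). At 230 min these scalings left 8 members lower (28.6%) and 4 lower (14.5%), the 4 being Ezh2, Ezh1, Eed and Cbx2.

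Ezh2, the catalytic subunit of PRC2 in dividing cells, had ratios of 45.5, 31.4 and 38.3 at 0 min in replicates 1, 2 and 3 and of 40.3, 27.8 and 41.3 at 10 min. It stood at 32.1, 31.1 and 34.4 at 50 min, at 14.1, 15.03 and 21.6 at 110 min, and at 14.7, 4.85 and 13.6 at 230 min. Every value at 110 and 230 min lay below every value up to 50 min, and the lowest was on the 230 min array of replicate 2. The trend of -0.53 ± 0.05 log2 per hr (SE) left 27.8% ± 10.8 of the 0 min level at 230 min (SD, n = 3).

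Ezh1, the paralogue that is prominent in resting cells, read 7.0, 8.43 and 5.95 at 0 min and 6.82, 6.43 and 5.02 at 10 min. It read 4.80, 6.79 and 5.63 at 50 min, 2.76, 3.83 and 3.43 at 110 min, and 2.74, 2.20 and 2.37 at 230 min. The last 2 times lay below all earlier values and did not overlap each other. Its trend was -0.40 ± 0.05 log2 per hr (SE).

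Eed, which binds the methyl mark and stimulates the enzyme, read 11.6, 6.73 and 7.86 at 0 min and 9.89, 6.28 and 7.72 at 10 min. The ratios were 6.90, 5.61 and 7.42 at 50 min, 3.18, 2.56 and 5.10 at 110 min, and 3.53, 1.46 and 2.44 at 230 min. As for Ezh2, all values from 110 min on lay below all earlier ones, and 110 and 230 min overlapped. Its trend was -0.51 ± 0.05 log2 per hr (SE).

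Suz12, the subunit that holds PRC2 together, read 23.4, 16.2 and 20.2 at 0 min and 25.1, 15.4 and 19.6 at 10 min. The 50 min arrays gave 18.0, 16.8 and 21.0, the 110 min arrays 9.79, 10.4 and 12.5, and the 230 min arrays 11.5, 5.61 and 7.97. On the deposited scale the first 3 times overlapped throughout, and the drop came between 50 and 110 min. With arrays divided by their median the 110 min difference from 0 min was -0.33 (limma, adjusted p = 0.20). With the 75th percentile it was -0.0024 (limma, adjusted p = 0.99). At 230 min 41.0% ± 7.39 of the 0 min level was left (SD, n = 3), and the trend was -0.37 ± 0.05 log2 per hr (SE).

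Within PRC2, Ezh2 fell faster than Suz12 on the same arrays, as did the brighter probe set of Eed. The slope of Ezh2 minus Suz12 was -0.16 log2 per hr (-0.30 to -0.05 over the 3 time courses; exact permutation test over all 15 arrays, adjusted over 36 pairs, p = 0.0020). This call held in every alternative processing of the pairs over the full course. That of Suz12 minus Eed was 0.14 (0.08 to 0.19; exact test, adjusted p = 0.0026), and it turned to -0.074 with both probe sets of Eed averaged (exact test, adjusted p = 0.044). Ezh2 minus Eed was -0.02 (-0.11 to 0.03; exact test, adjusted p = 0.63), which became 0.15 with a background of 1 subtracted (exact test, adjusted p = 0.0071) and -0.24 with both probe sets averaged (adjusted p = 0.0016). Ezh2 also fell faster than Ezh1, with a slope of Ezh2 minus Ezh1 of -0.13 (-0.23 to -0.07; exact test, adjusted p = 0.010). That call was lost without replicate 2 (exact test, adjusted p = 0.093) or replicate 3 (0.055), without the 2 arrays that stand apart (0.13) and with a background of 1 subtracted (0.71).

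Ring1 and Rnf2, the alternative ubiquitin ligases of PRC1, had close slopes over the full course. Ring1 read 6.74, 7.16 and 5.83 at 0 min, 7.36, 5.59 and 5.88 at 10 min, 5.74, 6.04 and 6.40 at 50 min, 2.75, 3.65 and 3.86 at 110 min, and 3.04, 2.20 and 2.57 at 230 min. Rnf2 read 9.0, 8.17 and 9.63 at 0 min, 8.55, 8.33 and 9.15 at 10 min, 6.90, 8.87 and 9.58 at 50 min, 3.79, 4.81 and 5.69 at 110 min, and 4.64, 2.66 and 4.17 at 230 min. For both, the first 3 times overlapped and lay above the last 2. The slope of Ring1 minus Rnf2 was -0.02 log2 per hr, between -0.08 and 0.03 in the 3 time courses (exact permutation test, adjusted p = 0.60), and their trends were -0.37 ± 0.05 and -0.36 ± 0.05 (SE). Over the first 50 min alone the slope of Ring1 minus Rnf2 ran from -0.30 to 0.15 in the 3 time courses.

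Bmi1, the PCGF partner of these ligases, kept the largest share of its transcript. Its ratios were 26.5, 17.0 and 21.4 at 0 min and 22.1, 12.5 and 17.2 at 10 min in replicates 1, 2 and 3. They were 19.2, 16.3 and 20.0 at 50 min, 10.9, 11.9 and 22.4 at 110 min, and 15.2, 7.64 and 13.0 at 230 min. The 110 min arrays overlapped those of every other time, with replicate 3 at 104.5% of its 0 min value and replicate 1 at 41.0%, while all 230 min arrays lay below all 0 min arrays. At 230 min 54.5% ± 8.34 of the 0 min level remained (SD, n = 3).

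At 110 min the Bmi1 difference of -0.58 ± 0.22 (SE; limma, adjusted p = 0.013) rested on replicate 1, without which it was -0.23 (adjusted p = 0.34), and it was -0.25 without the 2 arrays that stand apart (adjusted p = 0.18). It was also lost without the replicate block (adjusted p = 0.069). At 230 min the difference was -0.89 ± 0.22 (SE; adjusted p = 0.00016).

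On the same arrays Bmi1 fell more slowly than Ezh2, Ezh1, Suz12, Eed, Ring1, Rnf2 and Cbx2, by 0.15 to 0.40 log2 per hr (exact permutation test, adjusted p 0.00033 to 0.010), in 3 of 3 time courses each. Against Ezh2, Ezh1, Suz12 and Ring1 the call held in all full-course alternatives, and against Eed it was lost with both probe sets of Eed averaged (exact test, adjusted p = 0.063). Against Cbx8 the slope of Bmi1 was higher by 0.14 log2 per hr (0.09 to 0.17), which did not pass (exact test, adjusted p = 0.074). Only pairs of members were tested, so the counts of pairs have no share over all expressed probe sets beside them. In all, 22 of 36 pairs of members differed in slope, each with 1 direction in all 3 time courses, and 6 of them did so in all full-course alternatives (14 pairs differed without replicate 3). None of those 6 held Eed, Cbx2 or Cbx8, and the ratios of Cbx2 and Cbx8 at 110 and 230 min were between 1.51 and 2.75. For Eed against Suz12, Ring1, Rnf2 and Bmi1, only averaging both Eed probe sets undid the call. The dimmer of these did not pass the level filter and went from 1.41 at 0 min to 1.13 at 230 min. Over the whole time course Cbx2 minus Cbx8 was -0.26 log2 per hr (-0.35 to -0.16; exact test, adjusted p = 0.0036), and this was lost without replicate 3 (adjusted p = 0.064).

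Half-lives were fitted as a single exponential in each time course, and called reliable where k had p under 0.05 and the 95% interval was narrower than 2 half-lives in at least 2 of 3 time courses. Only Eed met this among the members, against 11.2% of all expressed probe sets, and among the alternatives it did so only without replicate 1, with a floor of 1 in the curve, with log-linear fitting and with the interval from the standard error of k. Its half-life was 111 ± 36.7 min (SD, n = 3), with 82.8, 98.1 and 153 min in replicates 1, 2 and 3. The fits of the other 8 members are given as estimates that did not meet the criterion.

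Cbx2 had the shortest mean half-life, 56.0 ± 19.7 min, from 38, 53.0 and 77.0 min. Ezh2 followed Eed at 116.5 ± 21.8 min, and Ezh1, Cbx8, Ring1, Suz12 and Rnf2 lay between 139.9 ± 33.9 and 165.7 ± 16.1 min (SD, n = 3). Bmi1 had the longest, 334 ± 181 min, from 211, 249 and 542 min, and its intervals had no upper bound in any time course. Cbx2 was the shortest and Bmi1 the longest in each of the 3 time courses. Neighbours in the order between Eed and Rnf2 overlapped in their ranges, while Cbx2 and Eed did not, nor did Rnf2 and Bmi1. For all 9 members the longest estimate came from replicate 3, and the share of all probe sets that did likewise was not counted. With a floor of 1 in the curve the Cbx2 estimate was 39.1 min and met the criterion, and with log-linear fitting it was 100 min and did not. The floor also shortened the Cbx8 estimate to 86.8 min.

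The length of the half-lives depends on the scaling of the arrays. Divided by their median, the arrays gave 88.8 min for Cbx2, 183 min for Eed and 189.8 min for Ezh2, 274 to 441 min for Ezh1, Ring1, Suz12, Rnf2 and Cbx8, and 1267 min for Bmi1, which decayed in only 2 time courses. Divided by their 75th percentile, they gave 143 min for Cbx2, 315 min for Eed and 326 min for Ezh2, and 716 to 2664 min for the same 5 members, while Bmi1 decayed in no time course. Of these 5, Rnf2 and Cbx8 decayed in only 2 time courses there, and their means leave out the time course without decay. Cbx2, Eed and Ezh2 came first in this order under each of the 3 scalings.

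**Figure D3:**
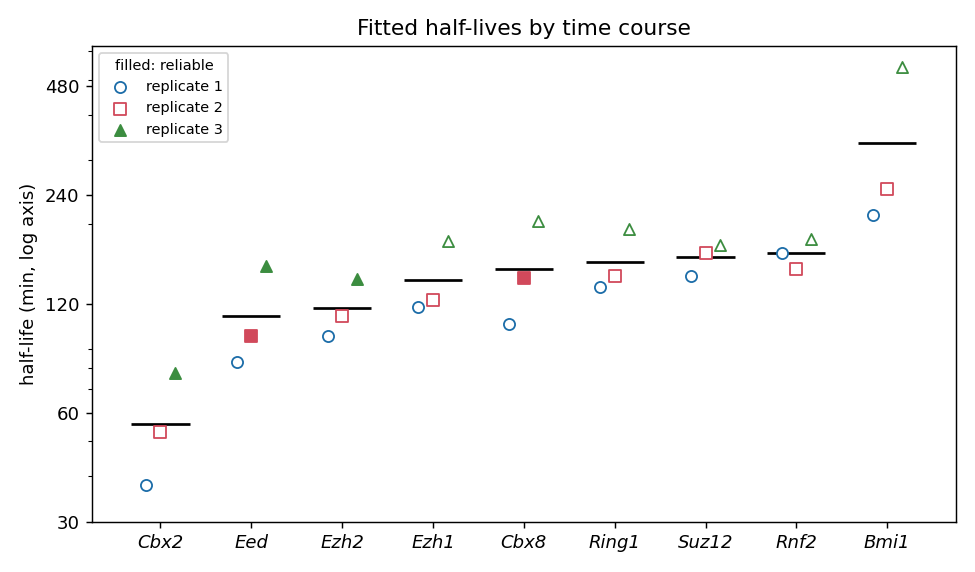
Half-life in min (y axis, log scale) of each Polycomb transcript in each replicate time course, with the mean as a line and members ordered by it. Filled symbols met the criterion for a reliable fit. Cbx2 has the 3 shortest values within their time courses and Bmi1 the 3 longest, and all 9 members have their longest value in replicate 3. The share of all probe sets with their longest value there was not counted.

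The rest of the Polycomb machinery and the enzymes that act against it were taken from 3 lists of 38 genes in all, of which 34 had a probe set that passed the level filter. All 34 fell in limma on the scale as deposited, beside 96.4% of all probe sets. With arrays divided by their median 27 fell, beside 37.8% of all probe sets. With the 75th percentile 13 fell and 5 rose, beside 15.7% lower and 50% higher over all probe sets. The same shares stand beside the counts of each list below.

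Accessory subunits of PRC2 had a median slope of -0.25, equal to that of all probe sets, and 7 of 7 fell (3 with median scaling, and 2 fell and 4 rose with the 75th percentile). The steepest were Mtf2, which directs PRC2 to CpG islands, at -0.48 ± 0.05 log2 per hr, Jarid2, a cofactor that recruits PRC2, at -0.41 ± 0.05, and Aebp2 at -0.32 ± 0.05 (SE). The shallowest were Phf1 at -0.21, Rbbp7, a histone chaperone shared with other complexes, at -0.24, and Phf19 at -0.24.

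Other PRC1 subunits had a median of -0.34, and 17 of 17 fell (14 with median scaling, and 4 fell and 1 rose with the 75th percentile). Bcor and Pcgf1, which sit together in a variant PRC1, had slopes of -0.53 ± 0.05 and -0.47 ± 0.06, and L3mbtl2 had -0.45 ± 0.05 log2 per hr (SE). At the other end were Cbx7, another chromodomain paralogue, at -0.23 ± 0.05, Yaf2 at -0.27 ± 0.05 and Pcgf2, the closest paralogue of Bmi1, at -0.27 ± 0.05. Scml2 did not pass the level filter.

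Enzymes that oppose Polycomb had a median of -0.44, and 10 of 10 fell (10 with median scaling and 7 with the 75th percentile, where none rose). Asxl1, the partner of the H2A deubiquitinase BAP1, was the steepest of the 34 at -0.71 ± 0.06 log2 per hr (SE). Kmt2d, an enhancer methyltransferase, had -0.54 ± 0.05, and Kdm6a, a demethylase that removes the PRC2 mark, had -0.52 ± 0.05. Kmt2c, the paralogue of Kmt2d, had -0.28 ± 0.05, Usp16, another H2A deubiquitinase, -0.35 ± 0.05 and Asxl2 -0.36 ± 0.05. Asxl3 did not pass the level filter.

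**Figure D4:**
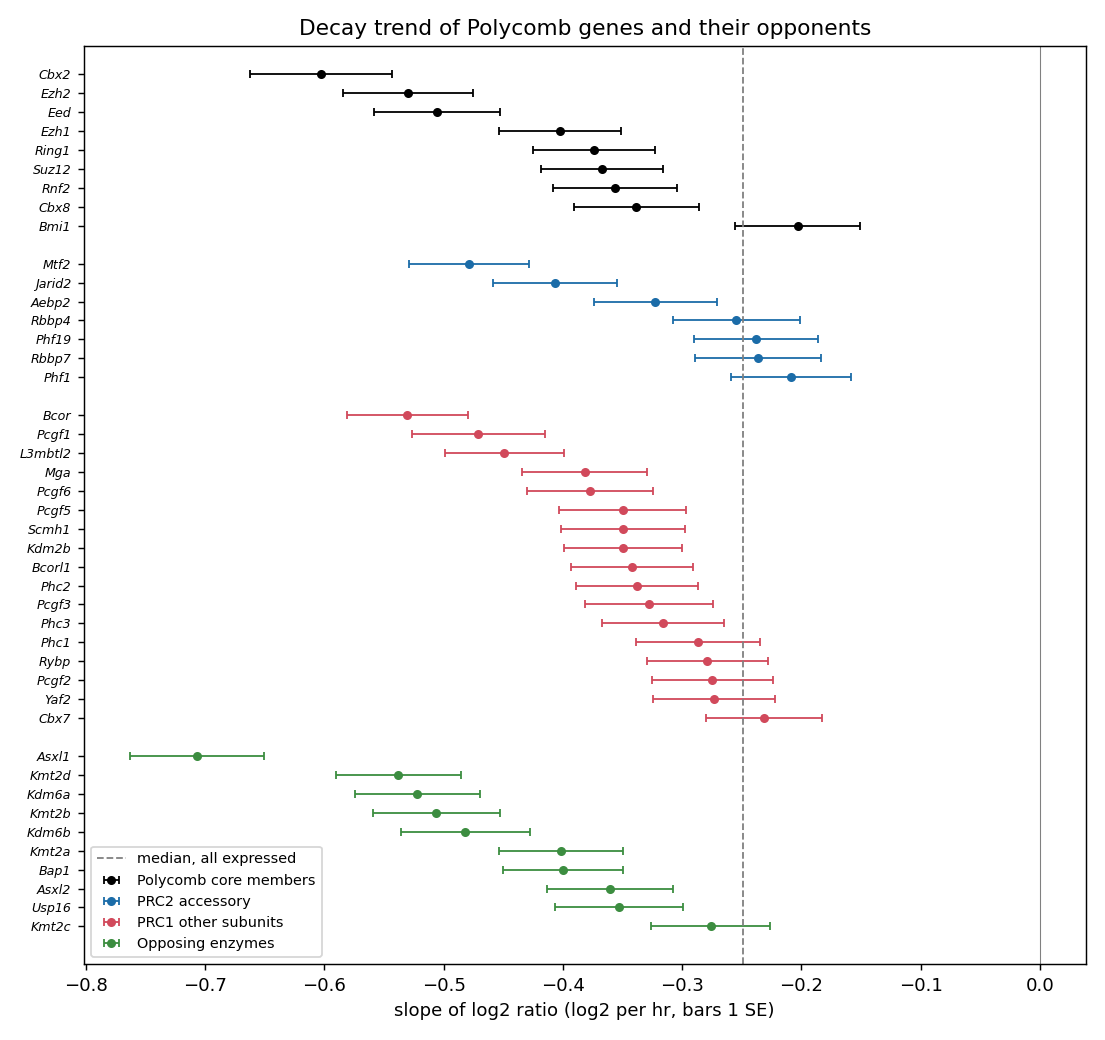
Slope of the log2 ratio in log2 per hr (x axis) for the 9 members, 7 PRC2 accessory genes, 17 other PRC1 genes and 10 opposing enzymes (y axis), with bars of 1 SE and a dashed line at the median of all expressed probe sets. Every slope is below 0 on the deposited scale, from -0.71 for Asxl1 to -0.20 for Bmi1. With arrays divided by their 75th percentile Bmi1 and 5 of the listed genes rose, as did 50% of all probe sets.

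Likeness of profile was measured as the root mean square difference in log2 change from 0 min over the 12 later arrays, among 9879 expressed genes. These arrays share their scaling and RNA, so the measure is a description. Suz12 and Rnf2, which belong to different complexes, were among each other's closest genes at 0.0919, where Rnf2 ranked 3 for Suz12 and Suz12 ranked 2 for Rnf2. The median gene was 0.35 away from either. Their slopes differed by -0.01 log2 per hr, between -0.04 and 0.04 (exact permutation test, adjusted p = 0.60). Because the pair was picked here for its closeness on these same arrays, that test is no separate support for it. Prune2 and Ammecr1 were closest to Suz12, and Cand1, which exchanges the substrate receptors of cullin ligases, was closest to Rnf2 at 0.0899.

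Ezh2 was closest to Cdh18 (0.11), Ccna2, a cell cycle cyclin (0.12), and Ints7, an Integrator subunit (0.14). Eed itself ranked 96 for Ezh2 at 0.23, and Ezh1 ranked 424. Eed was closest to Cdk8, a Mediator kinase (0.11), Wbp1l and Tnfaip8 (0.12 each). Ezh1 was closest to Fam120b (0.08), Fam160b1 and Synj2 (0.09 each), and Ring1 to Pip5k1c and Gemin7 (0.10 each) and the kinase Pak4 (0.10). Rnf2 ranked 464 for Ring1 at 0.20, and Ring1 ranked 739 for Rnf2.

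Cbx2 was closest to Mepce, which caps 7SK RNA (0.18), Ppp1r15b, a regulator of eIF2 dephosphorylation (0.19), and Adnp2 (0.20), where the median gene was 1.16 away. From Suz12 Cbx2 was among the farthest of all, ranked 9814 of 9879. Cbx8 was closest to Map3k14, the kinase NIK (0.15), Etv3 (0.16) and Lcmt2 (0.17). Bmi1 was closest to Hccs, which attaches haem to cytochrome c (0.13), and to Nudt4 and Dpy19l3 (0.14 each).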

How the data were processed

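The values as deposited are linear ratios: the authors scaled every summarised probe set to the 5th percentile of its array. How probe sets were summarised and background-corrected is not given in the sources used here. Of 25175 probe sets 21044 had a single symbol, 1492 several and 2639 none, and gene numbers linked 20959 to a mouse gene table of assembly GRCm38.p6. Tests covered the 12544 probe sets (9879 genes) that lay above the array median on 2 or more of the 3 arrays at 0 min. Log2 ratios, with no pseudocount, were fitted in R 4.3.3 with limma 3.58.1, both as a trend in time and with time as a factor, with a block for the replicate, moderated by eBayes and adjusted by Benjamini-Hochberg (called under 0.05). The study fitted each time course separately, and 29 of 30 pairs of arrays with the same replicate number had deviations that correlated above 0.1 (14 of 60 others did). Half-lives were fitted by least squares of A·exp(-kt) in Python 3.11.15, using scipy 1.17.1, numpy 2.4.6 and pandas 2.3.3, with 3 residual degrees of freedom and 95% profile intervals, and figures were drawn with matplotlib 3.10.9. Differences in slope between members were tested by exact permutation of times within time courses, two-sided, over 36 pairs. Tested on simulated data over 12544 probe sets, the trend found 43 of 50 slopes of -0.25 and 50 of 50 of -0.5, with 8 false calls. The simulated noise was independent between probe sets, so this check does not cover shifts shared by a whole array. Beside the 9 members, the 3 steepest and 3 shallowest genes of each list and the 3 nearest profiles of each member were named. The members and lists were chosen with earlier results of these data known. Alternatives covered scaling, filter, block, variance, background, decay model, time points and each replicate or array left out. Sequences were not analysed here.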

Additional observations from a re-analysis of the deposited data

How the results depend on the processing

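All 9 members fell over time in every alternative except scaling: 8 with arrays divided by their median, and 5 with the 75th percentile, where the slope of Bmi1 was 0.11 and its differences from 0 min at 110 and 230 min were both 0.28. Over all probe sets 37.8% fell with the median and 15.7% with the 75th percentile. Members lower at 110 min numbered 5 and 2 in these scalings (17% and 9.71% of all probe sets). At 230 min 4 were lower with the 75th percentile (14.5% of all probe sets). Without the replicate block 9 members fell, 1 was lower at 50 min, 8 at 110 min (Bmi1 was lost, limma, adjusted p = 0.069) and 9 at 230 min. The block changed no other call of the members. Without it 11975 of 12544 probe sets fell, and 130, 9478 and 11324 were lower at 50, 110 and 230 min. With 1 replicate left out, 9 fell, 1 was lower at 50 min, 8 to 9 at 110 min and 9 at 230 min. Over all 12544 probe sets 10216 to 12072 fell then, and 64 to 135 were lower at 50 min. At 110 min 5900 to 10158 were lower, and at 230 min 9137 to 11853. In the same fits 0 members differed between early and late slope, 0 to 1 had a reliable half-life and 14 to 16 pairs differed. Without both arrays that stand apart 19 pairs differed, and 2 members were lower at 50 min, Cbx2 and Cbx8, beside 1069 of 12544 probe sets. The same 2 were lower with an intensity trend in the variance, beside 459 probe sets (249 in the main fit). Cbx2 alone differed between early and late slope without those arrays, where 112 probe sets were called lower and 28 higher. It also differed with the 75th percentile (182 lower, 23 higher) and with the intensity trend (46 lower, 3 higher). Reliable half-lives numbered 0 in both scalings and without the 0 min arrays, 2 with a floor of 1 in the curve, 6 with log-linear fitting and 8 with the interval from the standard error of k. Half-lives in the alternatives were fitted for the members only, so the share of all probe sets in each was not counted. Of the other Polycomb and opposing genes 13 fell with the 75th percentile, where 15.7% of all probe sets did. Differences at 50 min that passed in no setting changed sign for Suz12, Ring1 and Rnf2 (0.099, 0.078 and 0.10 with median scaling, 0.071, 0.050 and 0.073 with the 75th percentile) and, over single replicates left out, ran from -0.17 to 0.051 for Suz12 and from -0.20 to 0.056 for Rnf2. Early minus late slopes that did not pass ran likewise from -0.18 to 0.19 for Bmi1, from -0.11 to 0.24 for Ezh1 and from -0.12 to 0.38 for Eed, and were 0.037 for Bmi1 with median scaling, -0.10 and -0.074 for Ezh1 and Eed with the 75th percentile, and -0.018 for Ezh1 without those arrays. In pairs, 12 differed over the first 50 min alone, an alternative chosen after seeing the data, where Ezh2 and Eed minus Cbx8 became 0.46 and 0.29, Suz12, Ring1 and Rnf2 minus Bmi1 0.0043, 0.0042 and 0.020, Ezh2 minus Ezh1 0.053 and Ezh2 minus Eed 0.17. Over single replicates left out, Ezh2 minus Eed ran from -0.050 to 0.019, Suz12 minus Rnf2 from -0.038 to 0.0035 and Ring1 minus Rnf2 from -0.042 to 0.015. Ezh2 minus Eed was 0.036 without the arrays that stand apart and 0.15 with a background of 1 subtracted, where Suz12 minus Rnf2 was 0.039. With both probe sets of Eed averaged, also added after seeing the data, Ezh1 and Suz12 minus Eed were -0.11 and -0.074, and Eed minus Ring1, Rnf2 and Cbx8 were 0.081, 0.064 and 0.046. The cause of these changes was not tested, and levels near 1 limit what Cbx2 and Cbx8 show after 50 min.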
